A study of Ovis aries with 16 samples.

Results

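C5aR is the receptor for C5a, the small fragment that is cut from complement protein C5 when the complement cascade is activated. It is a G protein-coupled receptor, now named C5AR1, that is carried at the surface of neutrophils, monocytes, macrophages and microglia and that directs these cells towards sites where complement is active. Brain cells other than microglia can carry it as well. The gene is described here in the hypothalamus of fetal sheep 24 h after the onset of a 30 min hypoxic or normoxic period, with and without ketamine, an anesthetic that blocks N-methyl-D-aspartate receptors. C5aR was measured by 2 of the 15008 probes of the array, which were all the probes that carried this gene name, and it was chosen because the difference made by ketamine was larger after hypoxia than after normoxia. Its levels, differences and group separations are therefore given as a description, with standard errors and without a test.

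The arrays came from 16 late-gestation Suffolk fetuses with chronic catheters. The normoxia control fetuses (NC, n = 3) were given saline and had no hypoxia, and the normoxia plus ketamine fetuses (NK, n = 4) were given ketamine in its place. The hypoxia control fetuses (HC, n = 5) were given saline before the inspired oxygen of the ewe was lowered for 30 min, and the hypoxia plus ketamine fetuses (HK, n = 4) were given ketamine before the same stimulus. All injections were intravenous, and every group had 23.5 h of normoxia before the tissue was taken. All fetuses shared catheterization and surgery, littermates are not named in the labels, and the whole hypothalamus was extracted, so that fewer cells of a type and less RNA per cell cannot be told apart.

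The signals below are log2 intensities relative to the 75th percentile of the same array, a reference that lay between 1248 and 1597 intensity units. The arrays lay on 2 slides, each of which held all 4 groups and was scanned separately. Between 71.8% and 80.6% of the probes of an array were well above background, and Pearson correlations between arrays ranged from 0.956 to 0.987. Hypothalamic peptide genes were well represented: 18 probes of 9 genes, among them OXT, POMC and GNRH1, were measured. By limma, 0 of the 18 passed an unadjusted p-value of 0.05 in any of the 5 comparisons, against 1.09% to 8.69% of all tested probes. Some varied widely between fetuses: AGRP ran from -6.78 in NC2 to 1.50 in HC3, and GHRH from -4.95 in NK1 to 0.13 in HC3. The median over the 18 probes was 0.37 for HC minus NC and 0.49 for NK minus NC. The count of 0 thus does not show that the tissue was alike between groups. After Benjamini-Hochberg adjustment over the 12250 probes tested, 0 probes passed for HC against NC, HK against HC, NK against NC and the interaction, where 999, 862, 133 and 466 passed before adjustment, and 1 of 1065, or 0.00816% of the probes tested, passed for HK against NK. Calls below are at the unadjusted threshold, which the study used.

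The sequences of the C5aR probes are printed because they decide how far the probes count as separate measurements. The capital letter marks the base that the other probe lacks:
A_70_P041821: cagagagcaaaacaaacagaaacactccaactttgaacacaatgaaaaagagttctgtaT
A_70_P041822: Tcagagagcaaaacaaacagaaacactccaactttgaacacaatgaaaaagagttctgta
Each probe is 60 bases long, and 59 bases are common to both, so that the probes read the same stretch of the transcript displaced by a single base. Both hold 35% G and C, below the median of 43.3% over all probes, and 29 of their 60 bases are A. The longest run that either shares with any of the 15006 other probes is 14 bases. The files give the target as an expressed sequence tag and its genome position as unmapped, so that no coordinates are given. In the RefSeq gene table of the assembly ARS-UI_Ramb_v3.0 the neighbours of C5AR1 are INAFM1 and C5AR2, the gene of the second C5a receptor, and neither was among the names on the array.

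C5aR was detected in the hypothalamus of every fetus. Both probes were well above background on 16 of 16 arrays, and no spot was saturated or marked as an outlier. With probe A_70_P041821, the NC arrays read -0.97, -1.06 and -1.05 and the NK arrays -1.04, -0.72, -1.00 and -0.81. The HC arrays read -0.57, 0.03, -0.33, -0.68 and -0.81, and the HK arrays read -1.23, -0.81, -1.23 and -0.94. The HC arrays were thus the highest as a group and the most widely spread, with the fetus HC2 above all others and HC5 level with the highest HK fetus.

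The group means of this probe were -0.47 ± 0.33 (SD, n = 5) in HC, -0.89 ± 0.15 (SD, n = 4) in NK, -1.03 ± 0.05 (SD, n = 3) in NC and -1.05 ± 0.21 (SD, n = 4) in HK. As unscaled intensity, the means were 1063 in HC, 736 in NK, 682 in NC and 643 in HK. NK, NC and HK were neighbours whose arrays overlapped. The differences between their means were smaller than the within-group SD of 0.23 taken over all 4 groups, although NC alone had an SD of 0.05. HC overlapped NK as well, through HC5 alone, and 4 of its 5 arrays lay above every NK array.

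The second probe gave nearly the same picture. With A_70_P041822 the NC arrays read -1.10, -1.14 and -1.04, the NK arrays -1.14, -0.79, -0.98 and -0.74, the HC arrays -0.53, -0.06, -0.36, -0.54 and -0.75, and the HK arrays -1.28, -0.80, -1.09 and -1.02. Its means were -0.45 ± 0.26 (SD, n = 5) in HC, -0.91 ± 0.18 (SD, n = 4) in NK, -1.05 ± 0.20 (SD, n = 4) in HK and -1.09 ± 0.05 (SD, n = 3) in NC, so that only the order of the lowest pair was exchanged. Over the 16 arrays the probes correlated with a Pearson coefficient of 0.966, and of 0.927 once each group mean was removed. Their difference on the same array never exceeded 0.14, against a spread between fetuses of the same group of 0.23 for the first probe and 0.20 for the second. Because the probes share nearly all their bases, this agreement describes the reading of the array and not a second measurement of the gene.

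**Figure D1:**
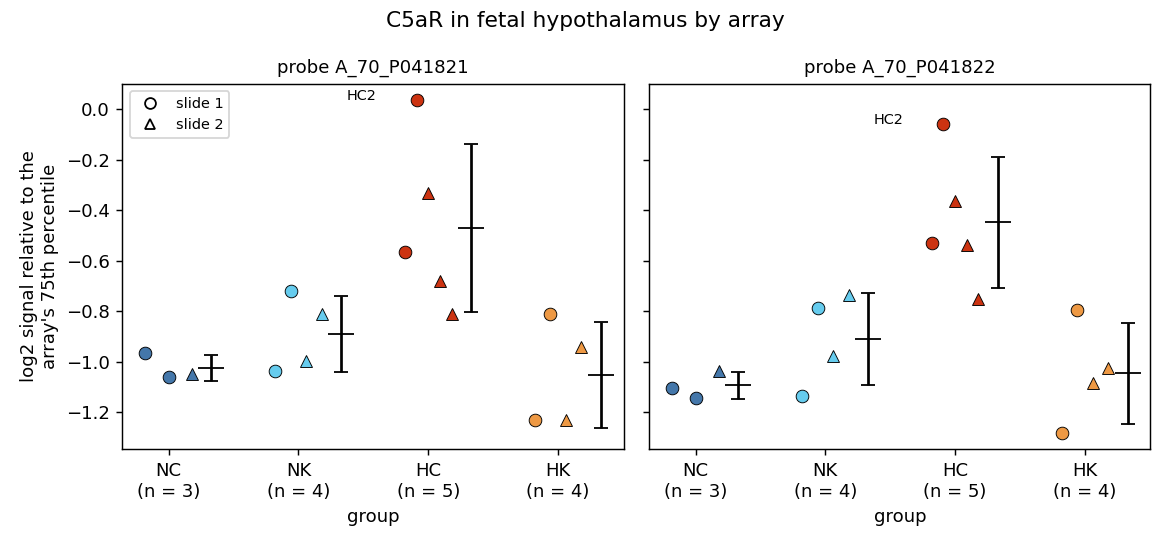
C5aR signal on each array, as log2 relative to the 75th percentile of the array, for the 2 probes and the 4 groups; circles are arrays of slide 1, triangles of slide 2, and bars show the group mean ± SD. The HC arrays lie above all NC arrays with either probe, and HC2 is the highest point in both panels.

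Hypoxia with saline was accompanied by a higher C5aR signal than normoxia with saline. The fitted HC minus NC difference was 0.55 ± 0.17 (SE), a 1.47-fold level, with the first probe and 0.65 ± 0.15 (SE), a 1.56-fold level, with the second. All 5 HC arrays were above all 3 NC arrays, with a gap of 0.16 log2 units for the first probe and 0.28 for the second. Arrays of HC lay above all NC arrays in this way for 2.47% of the tested probes, a share given for reference only because C5aR was chosen on these values.

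Among the hypoxic fetuses, C5aR was lower where ketamine had been given. The HK minus HC difference was -0.58 ± 0.15 (SE) with the first probe and -0.60 ± 0.14 (SE) with the second, which corresponds to 0.668 and 0.661 of the HC level. All 4 HK arrays were below all 5 HC arrays, as was the case for 0.49% of the tested probes, but for the first probe HK2 and HC5 were separated by 0.00063 log2 units only. For the second probe the gap was 0.045. With this distance the separation of the groups rests on HK2 and HC5, which could not be told apart within the difference between the probes on an array.

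Under normoxia the ketamine difference was small and of opposite sign. NK minus NC was 0.13 ± 0.17 (SE) with the first probe and 0.18 ± 0.15 (SE) with the second, and the groups overlapped. The interaction, which is HK minus HC less NK minus NC and on which the gene was chosen, was -0.72 ± 0.23 (SE) and -0.78 ± 0.21 (SE). Between the ketamine groups, HK minus NK was -0.16 ± 0.16 (SE) and -0.14 ± 0.14 (SE), and the arrays overlapped. Each group enters more than 1 of these differences, so that they are not separate observations.

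The HC2 array carried part of these differences. Without it, HC minus NC was 0.43 and HK minus HC was -0.46, the values nearest to 0 among the settings tried, and the interaction was -0.59. Within the first slide, which held HC2, HC minus NC was 0.75, HK minus HC was -0.76 and the interaction was -0.89. Within the second slide they were 0.44, -0.48 and -0.62, from 1 NC, 2 NK, 3 HC and 2 HK arrays. The sign of each difference was the same on both slides.

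**Figure D2:**
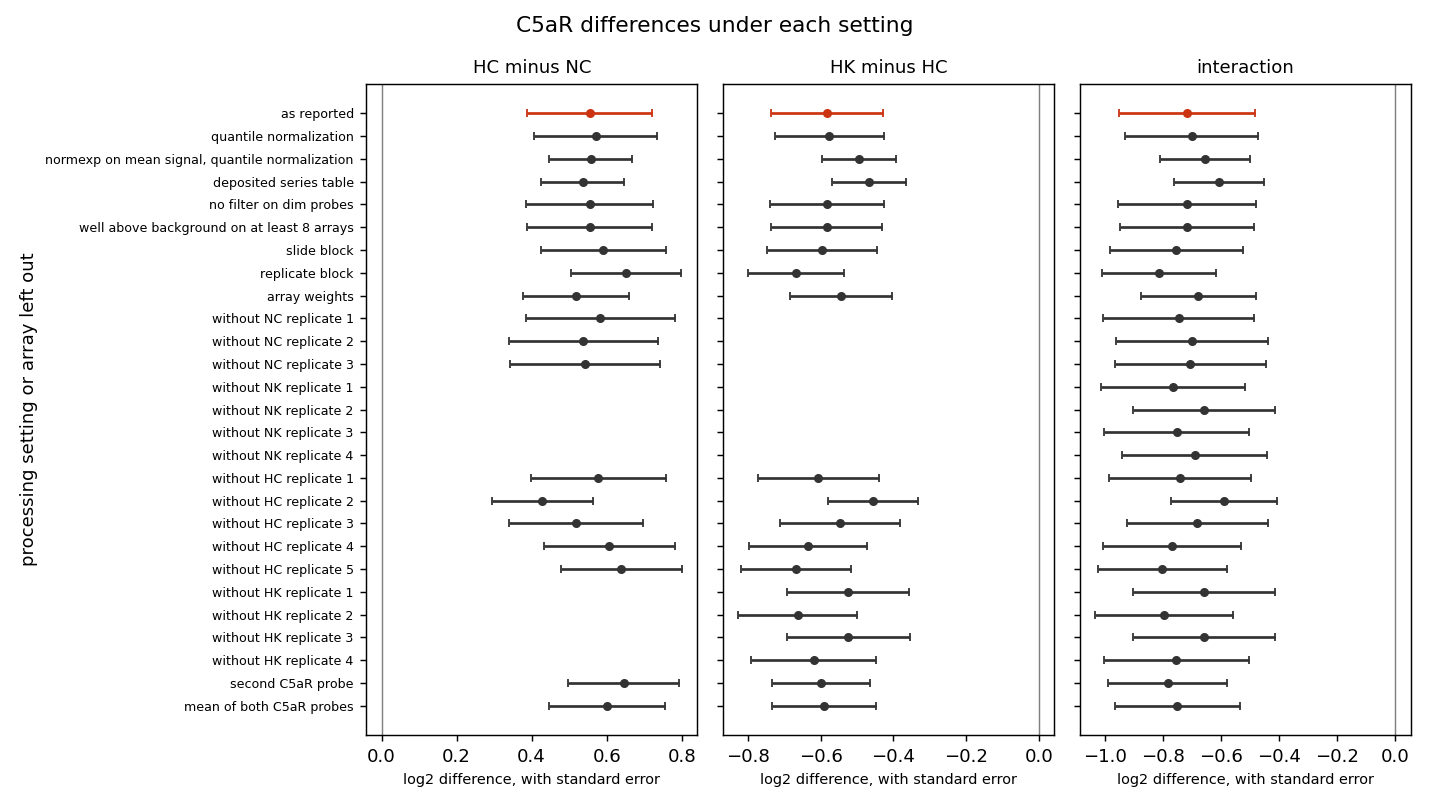
C5aR differences from limma, in log2 units with standard errors, for HC minus NC, HK minus HC and the interaction, under the processing settings that were run for the interaction and with each array left out. The fit with only the groups compared is not shown, and a point is missing where the array left out does not belong to the difference. Every point lies on the same side of 0 as the value reported, and the values without HC replicate 2 are the nearest to 0 in all 3 panels.

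The other complement genes on the array were few. Of 53 names of complement components, receptors and inhibitors, 6 genes were found among the named probes, and all 10 of their probes could be tested. C5 itself, which gives rise to the ligand C5a, was not among them, nor was the second receptor C5AR2. In HC against NC, 1 of the 10 probes was called, which was higher in HC, where 8.16% of all tested probes were called and 4.22% were called as higher. In HK against HC, 2 of 10 were called, both lower, against 7.04% of all tested probes in either direction and 3.79% lower. In HK against NK, 2 of 10 were called, both lower, against 8.69% and 6.31%. In NK against NC, 0 of 10 were called, against 1.09%, and in the interaction 2 of 10, both negative, against 3.8% in either direction and 2.49% negative. No call passed the adjustment. The median differences over the 10 probes were 0.27, -0.20, 0.12, -0.18 and -0.23 for HC minus NC, HK minus HC, NK minus NC, HK minus NK and the interaction, where the medians over all tested probes lay between -0.03 and 0.03.

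C3, the central component from which the enzymes that cleave C5 are built, was the complement gene called by both its probes in HK against HC and in the interaction, each time with the sign that C5aR had. C3 was abundant in all groups, at 3.34 ± 0.17 (SD, n = 3) in NC, 3.59 ± 0.11 (SD, n = 4) in NK, 3.61 ± 0.35 (SD, n = 5) in HC and 3.02 ± 0.60 (SD, n = 4) in HK with its brighter probe. The HC arrays read 3.17, 3.93, 3.51, 3.46 and 4.00, and the HK arrays read 2.38, 3.48, 2.65 and 3.58. The fall with ketamine thus lay in HK1 and HK3, which were also the lowest arrays for C5aR with the first probe, while HK2 and HK4 were within the range of HC.

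C3 was lower in HK than in HC by both probes, with differences of -0.59 ± 0.24 (SE, limma adjusted p = 0.685) and -0.54 ± 0.22 (SE, limma adjusted p = 0.691), both called before adjustment. The interaction was -0.84 ± 0.36 (SE, limma adjusted p = 0.994) and -0.80 ± 0.34 (SE, limma adjusted p = 0.994), both called before adjustment. C3 was not called between HC and NC, at 0.27 ± 0.26 (SE) and 0.33 ± 0.24 (SE), and was called as lower in HK than in NK by its brighter probe, at -0.57 ± 0.25 (SE, limma adjusted p = 0.541). Over the alternatives the HK minus HC difference of the brighter probe ranged from -0.78 to -0.38, and its call was lost without HC2, HC5, HK1 or HK3, with array weights and with only the groups compared.

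ITGAM and ITGB2 form complement receptor 3, which binds the C3 fragment iC3b on phagocytes. ITGAM was called in HC against NC with a single probe, at 0.74 ± 0.33 (SE, limma adjusted p = 0.585), while its other probe stood at 0.26 ± 0.42 (SE), and both were dim. That call was lost under 11 of 17 alternatives, among them quantile normalization and the slide as a block. ITGB2, which was brighter, gave 0.46 ± 0.36 (SE) and 0.38 ± 0.34 (SE) for HC minus NC and was not called in any comparison. Its highest array was HC2, as for C5aR.

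CR2, a receptor for the C3 fragment C3d that is best known from B cells, was called only in HK against NK. The difference was -1.80 ± 0.52 (SE, limma adjusted p = 0.358) with a probe that cleared background on a single HK array of 4, and -0.54 ± 0.84 (SE) with the other probe. For the called probe the call was kept under 17 of 17 alternatives, but the size of the difference was not stable, at -0.26 with the deposited table. CD93, once described as a receptor for C1q, was not called in any comparison, with an HC minus NC difference of 0.17 ± 0.25 (SE).

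**Figure D3:**
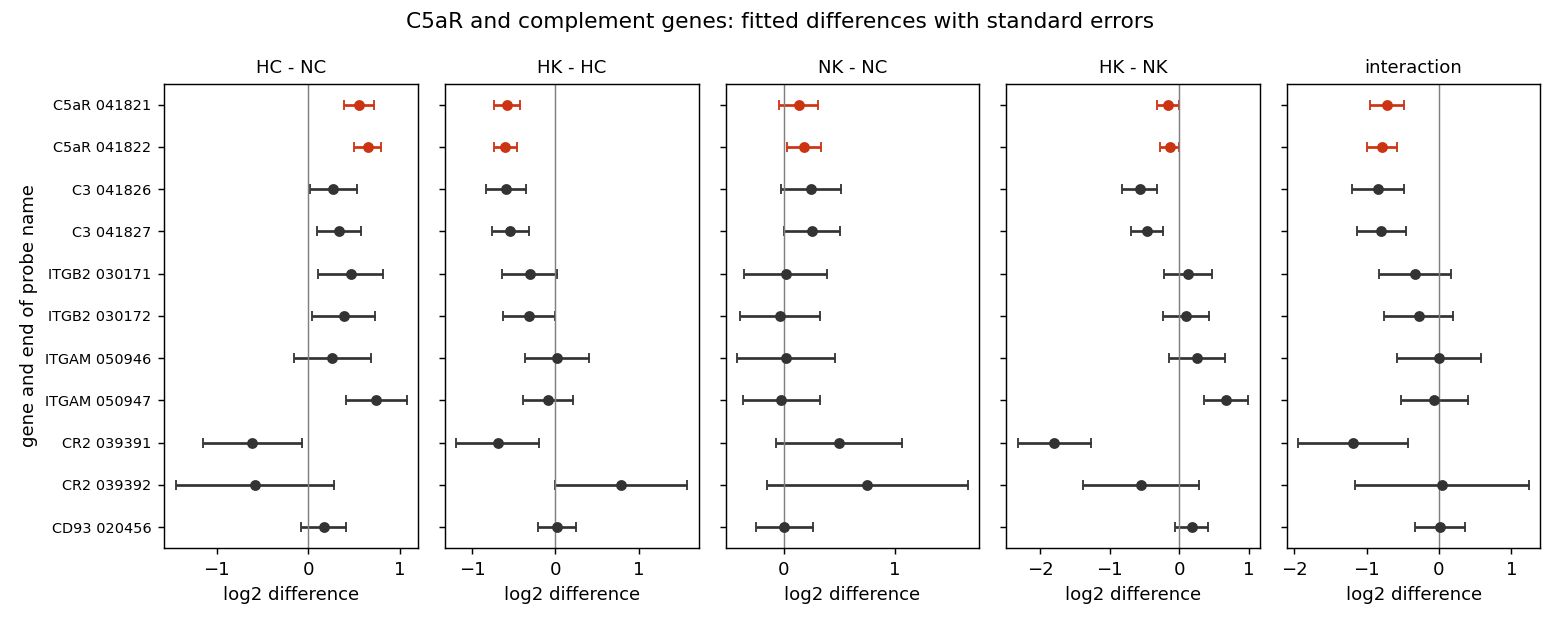
Differences with standard errors from limma, in log2 units, for the C5aR probes (red) and the probes of 5 other complement genes (black) in the 5 comparisons; each panel has its own horizontal scale. C5aR and C3 lie left of 0 in HK minus HC and in the interaction, and the CR2 probes differ from each other by more than their standard errors in HK minus HC.

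The other chemoattractant receptors and the signalling genes were sparsely represented as well. Of 24 names of chemoattractant receptors, PTAFR, the receptor of platelet-activating factor, and CCR3, a chemokine receptor of eosinophils, had 1 tested probe each, and 0 of the 2 were called in any of the 5 comparisons. Of 31 names of G protein subunits, kinases and small GTPases downstream of the receptor, AKT1, RAC1 and RHOA were tested, and 0 of the 3 probes were called in any comparison. All HC minus NC differences of these 3 genes lay between -0.08 and 0.13. Over all tested probes, 1.09% to 8.69% were called in the 5 comparisons. At such shares, 0 calls among so few probes say little about the receptors or the signalling genes.

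Genes of the phagocytes that carry C5aR moved in part with it. Of 22 names of microglia and macrophage markers, CTSS, FCER1G, CD86, CD14, CD80 and ITGAM were measured by 10 probes, while the microglia markers AIF1, CX3CR1, P2RY12 and TMEM119 were not found by name. In HC against NC, 6 of the 10 probes were called, all higher in HC, against 4.22% of tested probes in that direction, and the median difference was 0.60. They belonged to CD14, the co-receptor for bacterial lipopolysaccharide, to CD86, a co-stimulatory protein, to FCER1G, the signalling chain of Fc receptors, and to ITGAM. The CD14 differences were 1.34 ± 0.59 (SE, limma adjusted p = 0.583) and 1.36 ± 0.61 (SE, limma adjusted p = 0.588). The FCER1G probe that was called stood at 0.45 ± 0.21 (SE, limma adjusted p = 0.603). The count was not stable to single arrays. It was 5 without HC1 or HC5, 2 without HC4 or NC3, 1 without HC2, HC3 or NC2 and 0 without NC1.

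In HK against HC, 2 of the 10 were called, both lower in HK, against 3.79% in that direction. The median difference was -0.28, with 8 probes lower in HK and 2 higher, those of CD80 and the dimmer of ITGAM. The called probes were a CD14 probe at -1.35 ± 0.55 (SE, limma adjusted p = 0.689) and the dimmer CD86 probe at -0.90 ± 0.39 (SE, limma adjusted p = 0.698). The count was 0 without HC2 or HK3, 1 without HC3, HC4 or HK4 and 4 without HC1. In NK against NC, HK against NK and the interaction, 0 of the 10 were called, against 1.09%, 8.69% and 3.8% of all tested probes. The signals of the 6 genes, summed in units of the 75th percentile, ran from 3.32 to 4.00 in NC, from 3.56 to 3.98 in NK, from 3.09 to 9.34 in HC and from 3.10 to 4.43 in HK. HC2 held the highest sum, and HC1, the HC array with the third highest C5aR value, held the lowest sum of HC. Across the 16 arrays the log2 of the sum correlated with C5aR with a Pearson coefficient of 0.789. The sum was dominated by CTSS, which was not called, with an NC mean of 1.41 against -0.72 for FCER1G, the next brightest gene. The coefficient of CTSS alone was 0.705 over all arrays, 0.306 without HC2 and 0.090 without HC2 and HC3. The part of these genes in the C5aR differences was not tested.

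Neutrophil granule genes had another distribution. Of 22 names, the cathelicidins BAC5 and CATHL3 and the iron-binding protein LTF were tested with 4 probes. None of the 4 was called in HC against NC, against 8.16% of all tested probes, although all 4 were higher in HC and their median difference was 1.84. In HK against HC, 0 of the 4 were called, against 7.04% of all tested probes, with 3 higher and 1 lower in HK and a median of 0.34. In HK against NK, 3 were called as higher in HK, against 2.38% of tested probes in that direction. CATHL3 was higher by 3.37 ± 1.39 (SE, limma adjusted p = 0.50), with HK arrays at -2.83, 2.87, -3.23 and 2.51, and 0 of the 4 probes were called without NK1, NK3, HK2 or HK4. The summed signal of the 3 genes ran from 0.28 to 0.93 in NC, from 0.13 to 0.89 in NK, from 0.68 to 6.76 in HC and from 0.36 to 14.6 in HK. HK2 and HK4, the HK fetuses in which these genes were high, also had the higher C5aR values of their group, HK2 being level with HC5 by the first probe, and C5aR correlated with the sum with a coefficient of 0.489 over the 16 arrays. The part of these cells in the C5aR levels was not tested.

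Of the vascular markers, SELP and ICAM1 were higher in the hypoxic controls and the others were not called in that comparison. In HC against NC, 3 of the 8 endothelial probes tested were called, all higher in HC, against 4.22% of tested probes in that direction, and the count was 3 with any array left out. SELP, the P-selectin by which activated endothelium and platelets bind leukocytes, was higher by 4.70 ± 1.09 (SE, limma adjusted p = 0.342) with its brighter probe. The dimmer SELP probe was at least 22.4-fold higher in HC, where the readings as measured differed by 4.98 ± 1.22 (SE). That probe cleared background on no NC or NK array, while the brighter one cleared it on 2 NC arrays and 1 NK array. The dimmer probe thus passed the filter only through HC and HK, and its difference is a description without a test. The counts of called probes include it, and its part in them was largely fixed by the filter. ICAM1, an adhesion molecule for leukocytes, was higher in HC by 2.42 ± 0.80 (SE, limma adjusted p = 0.442), although HC5 at -5.32 lay below NC1 at -5.24. PECAM1 at 0.03 ± 0.24 (SE), KDR at -0.15 ± 0.19 (SE) and -0.02 ± 0.28 (SE), FLT1 at 0.69 ± 0.49 (SE) and SELE at -0.28 ± 1.00 (SE) were not called. FLT1 cleared background on no NC array, and its lower bound was 1.48-fold. In HK against NK, 2 of the 8 were called, both SELP probes and both higher in HK, against 2.38% in that direction, although HK3 lay among the NK arrays at -6.85 with the dimmer probe. Without NK4 that count was 3 higher and 1 lower. In HK against HC, 0 of the 8 were called with all arrays, against 7.04% of all tested probes. The count was 1 without HK2 or HK3 and 3 without HC5, all lower in HK. Of the other lists, 0 of 3 probes of AQP4 and GFAP and 0 of 2 probes of HBB were called in any comparison, against 1.09% to 8.69% of all tested probes. Of 9 anterior pituitary probes only a probe of LHB was called, at 0.19 ± 0.08 (SE, limma adjusted p = 0.698) for HK minus HC and 0.21 ± 0.09 (SE, limma adjusted p = 0.496) for HK minus NK. The other LHB probe was far dimmer and went the other way, with means of -4.57 in HK, -4.23 in HC and -4.17 in NK. It had no value for HK2, and its lower HK mean came mostly from HK1 at -5.27, with HK3 at -4.20 and HK4 at -4.22.

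C5aR was also set against every other named gene over the 16 arrays, each by its brightest tested probe. The Pearson coefficients over 869 genes had a median of 0.0003, and 13 genes exceeded 0.7. The arrays share slides and treatment groups, and the coefficients are a description without a test. For CLEC4E the coefficient rests mostly on background readings, since its tested probe cleared background on 4 of the 16 arrays and passed the filter through HC. The 10 genes most like C5aR were CLEC4E (0.830), FCER1G (0.823), a gene described on the array as serum amyloid A3.2 (0.817), TIMP1 (0.811), CD86 (0.809), BCL2 (0.792), TNF (0.768), CD14 (0.744), VDUP1 (0.732) and IGFBP3 (0.714). CLEC4E is a C-type lectin receptor of macrophages, serum amyloid A is an acute-phase protein, TIMP1 inhibits matrix metalloproteinases, BCL2 opposes apoptosis, TNF is an inflammatory cytokine and IGFBP3 binds insulin-like growth factors. VDUP1 is the older name of the thioredoxin-interacting protein TXNIP.

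Most of these likenesses rested on few arrays. Without HC2 and HC3, the arrays farthest from the C5aR median, the coefficients of the 10 genes ran from 0.337 to 0.876 and only BCL2 was still among the 10 highest. Without HC2 alone they ran from 0.573 to 0.926, and 4 of the 10 genes were kept. After the mean of each group was subtracted they ran from 0.531 to 0.910 and 5 were kept, with TIMP1 at 0.910, CLEC4E at 0.817 and FCER1G at 0.788. After the slide means were subtracted, 9 were kept.

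BCL2 had the highest coefficient of the 10 genes without HC2, at 0.926, but it stood at 0.535 once group means were removed. Its means were 1.39 ± 0.11 (SD, n = 3) in NC and 1.50 ± 0.10 (SD, n = 4) in NK. The HC arrays read 1.87, 1.77, 2.24, 1.78 and 1.56, and the HK arrays had a mean of 1.34 ± 0.34 (SD, n = 4), from 1.05 in HK3 to 1.78 in HK2. As for C5aR with its first probe, HC was the highest group, all HC arrays were above all NC arrays and HK1 and HK3 were the lowest of all, but HK2 lay within the range of HC. With the second C5aR probe, HK3 lay above NC1, NC2 and NK1. BCL2 stood at 0.45 ± 0.17 (SE) for HC minus NC, -0.50 ± 0.15 (SE) for HK minus HC and -0.61 ± 0.23 (SE) for the interaction. No test is given for these, because BCL2 was picked for its likeness to a gene chosen on the same contrasts. For the same reason its separation of HC from NC is a description, and 2.47% of the tested probes had that separation.

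TNF was dimmer and more widely spread, at -3.33 ± 1.05 (SD, n = 5) in HC, -4.88 ± 0.52 (SD, n = 4) in NK, -4.95 ± 1.19 (SD, n = 4) in HK and -5.03 ± 0.37 (SD, n = 3) in NC. Its HC arrays read -3.97, -2.12, -3.80, -2.30 and -4.45, all above the NC arrays, and HK2 at -3.17 reached into HC. HC arrays lay above all NC arrays for 2.47% of the tested probes. That share is for reference only, because TNF was picked for its likeness to C5aR, which largely fixes a higher HC. Of the 4 arrays on which CLEC4E cleared background, 3 were HC and 1 was NK. For CLEC4E, HC was at least 2.26-fold higher than NC and at least 2.21-fold higher than HK, given as a description without a test. CLEC4E passed the filter through HC and was picked for its likeness to C5aR, so that a higher HC is largely fixed by that choice. NK4 at -3.62 lay above all HC arrays but HC2. C3 followed C5aR less closely, with a coefficient of 0.577, and ITGB2 reached 0.696 over all arrays but -0.01 without HC2 and HC3.

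**Figure D4:**
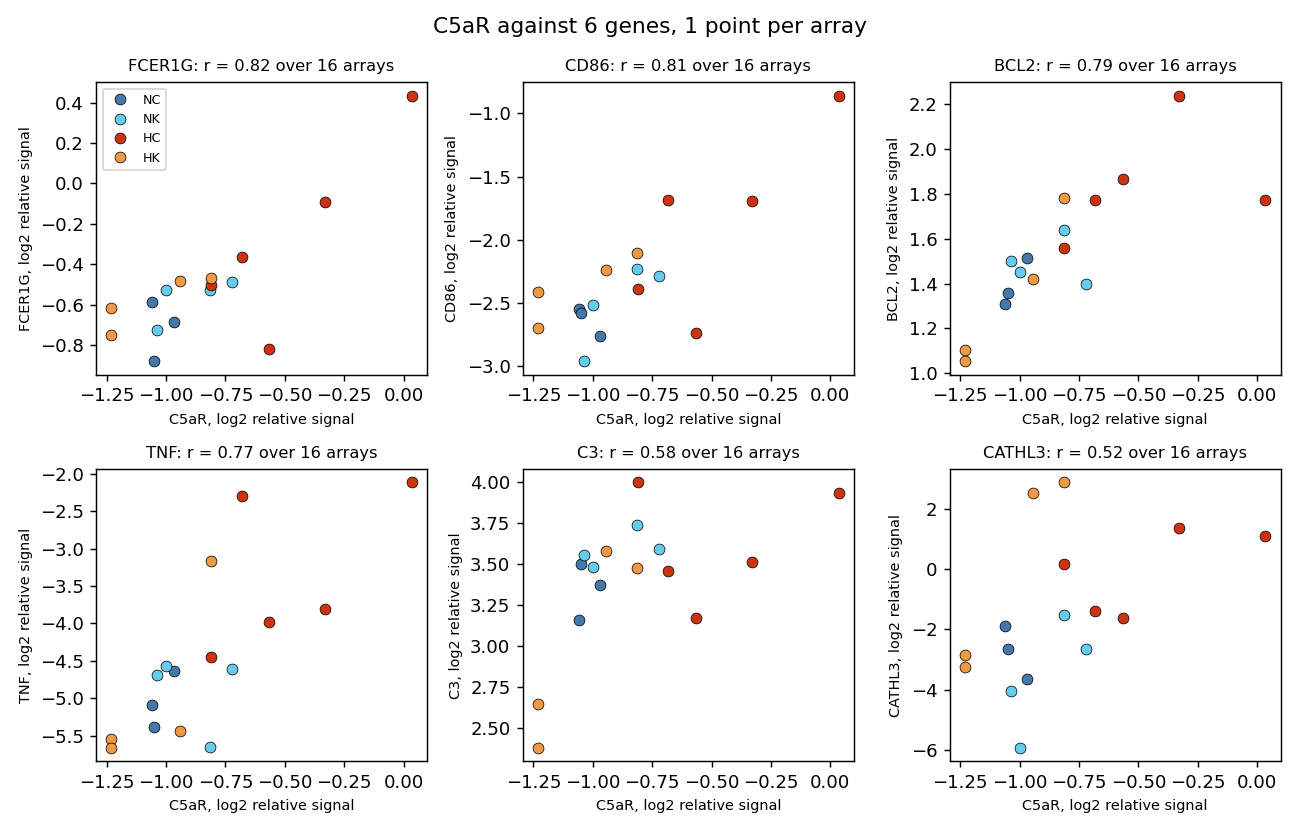
Signal of 6 genes (vertical axes) against C5aR probe A_70_P041821 (horizontal axes), both as log2 relative to the 75th percentile of the array, with 1 point per array coloured by group and the Pearson coefficient over 16 arrays in each title. The HC2 point lies at the far right of every panel and is the highest for FCER1G, CD86 and TNF, whereas for BCL2 the highest point is HC3 and for CATHL3 it is HK2.

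At the other end, the lowest coefficients were those of BCKDHA (-0.759), a subunit of the enzyme that degrades branched-chain amino acids, ATP6V1E1 (-0.744), a subunit of the vacuolar proton pump, and SLC25A4 (-0.740), the ADP/ATP carrier of mitochondria. The group means of these genes differed by little. For SLC25A4 they were 4.50 ± 0.13 (SD, n = 3) in NC, 4.37 ± 0.06 (SD, n = 4) in NK, 4.29 ± 0.17 (SD, n = 5) in HC and 4.50 ± 0.08 (SD, n = 4) in HK, with HC the lowest group where it was the highest for C5aR.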

How the data were processed

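Total RNA of 16 fetal hypothalami was carried, with a cyanine 3 label, on Agilent sheep arrays of a single color. The deposited scanner files hold intensity values per spot on a linear scale, with background subtracted by the software and no normalization between arrays (Feature Extraction 10.1.1.1, per the file headers). The authors also deposited a table of log2 values of the same arrays with no method stated, which was used as an alternative. The 536 control spots and spots marked as outliers (0.0801%) were left out. The log2 processed signal minus the 75th percentile of each array was averaged over spots of a probe, and the 12250 probes whose spots cleared background on 3 or more arrays were tested. Depth has no counterpart on arrays, and the number of arrays limits the precision. Samples were grouped by their labels.

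A model of the 4 groups was fitted over 16 arrays in R 4.3.3 with limma 3.58.1, with empirical Bayes moderation, two-sided tests, a call at an unadjusted p-value of 0.05 and Benjamini-Hochberg adjustment over all tested probes. The procedure was tested on simulated data. A gene that the list counts include is not reported here by name. The gene and the lists were chosen with earlier results of these data known. Genes were named by rule: C5aR, the 10 named genes of highest and the 3 of lowest Pearson correlation with its brighter probe, the tested complement genes, and the called genes of the other lists. For a probe that no array of a group read well above background, the fold is a lower bound. It sets the mean of the brighter group against the dimmer group with each array raised at least to its lowest signal of any probe that cleared background. Names are those of the array design, updated through RefSeq accessions (726 of 750 probes matched) or gene numbers. Alternatives were quantile normalization, normexp correction with an offset of 50, the deposited table, no filter or a filter of 8 arrays, slide and replicate number as blocks, array weights, only the groups compared, and leaving out each array. p-values measure the spread between these fetuses, slide differences included, since the reported fit held no slide term. Possible littermates were not modelled.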

Additional observations from a re-analysis of the deposited data

Results flagged for a closer look

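The interaction was the value on which C5aR was chosen, at -0.72 and -0.78 with its 2 probes, and carries no test here. For C3 it was -0.84 and -0.80 with its 2 probes, called by limma before adjustment and not after it. For BCL2 it was -0.61 and for SLC25A4 0.34. These genes were picked by their correlation with C5aR, so that their interactions are largely fixed by that choice and are given as a description without a test.

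Single arrays stood apart from the rest of their group in 5 of 75 groups examined, where chance gives about 1 in 20. CR2 was highest in HK2 at -5.72 with probe A_70_P039391, which did not clear background on the other HK arrays, whereas with A_70_P039392 HK3 was highest at -3.43 and HK2 read -6.60. TNF was highest in HK2 at -3.17. FCER1G was lowest in NK1 at -0.72, the serum amyloid A3.2 gene (LOC100135684) was lowest in NK1 at -6.82, and TNF was lowest in NK4 at -5.65. The NK, HC and HK groups held no such array for C5aR, and HC2 did not meet this criterion.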

How the results depend on the processing

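The C5aR differences kept their sign under all alternatives run. With each array left out in turn, they ranged from 0.43 to 0.64 for HC minus NC, -0.67 to -0.46 for HK minus HC, 0.08 to 0.18 for NK minus NC, -0.24 to -0.10 for HK minus NK and -0.80 to -0.59 for the interaction. HK minus NK, -0.16 as reported, was -0.10 with normexp and -0.07 with the deposited table. The count of complement probes called in HC against NC (1 as reported) was 0 with quantile normalization, normexp, the deposited table, slide as a block, the replicate block or only the groups compared. In HK against HC (2 as reported) it was 0 with array weights or only the groups compared, and in HK against NK (2 as reported) it was 1 with array weights. With arrays left out it ranged from 0 to 1, 0 to 3, 0 to 0, 1 to 3 and 0 to 3 in the 5 comparisons in the same order. The causes were not tested. Of the 10 genes most like C5aR, 1 was kept without the 2 farthest arrays, 4 without HC2 and 5 with group means removed. These settings, the second probe and the arrays left out of the phagocyte and endothelial lists were chosen after seeing the data.

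The replicate number was tried as a block although it does not pair the fetuses: deviations of same-numbered arrays correlated with a median of 0.22 (21 pairs, -0.06 to 0.35), about as different numbers on the same slide did (0.21, 26 pairs). Arrays on different slides had a median of -0.18 (48 pairs), and the reported fit held no slide term. With the replicate block the C5aR interaction was -0.81, and the complement calls were 0 in HC against NC, 1 in HK against HC and 0 in the interaction. HC5 had no partner in it.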
